A study of Mus musculus with 4 samples.

Results

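Expression of 37 DNA repair genes was examined in F123-ESCs, out of 24026 genes with deposited values. The genes were taken by a rule on their symbols, which uses no measured value: Fanc followed by 1 letter from a to m, Brca1 and Brca2, every symbol that begins with Rad50 to Rad54 or with Xrcc1 to Xrcc6, and the symbols of the MutS and MutL homologues of mismatch repair and meiosis. The rule therefore leaves out Fancd2, whose symbol ends in a digit, and takes in Rad54l2, a translocase that shares the name of Rad54 and is known as a partner of nuclear receptors. F123-ESCs are a male hybrid mouse embryonic stem cell line with maternal S129 and paternal CAST chromosomes, so each autosomal gene has 1 copy of either strain. The data are 4 RNAseq libraries, replicates 1 to 4, of untreated cells of this S129/CAST genotype, grown on inactivated mouse fibroblasts, kept for at least 2 passages without them and harvested after about 48 h. There is no other treatment, genotype or time point, all libraries come from 1 cell line, and nothing in the labels says whether they come from separate cultures. The p-values below therefore measure the spread between these libraries, which may be technical. The comparison the design allows is that of the S129 with the CAST copy within the same cells. Since S129 is always the maternal and CAST always the paternal copy, strain and parent of origin cannot be told apart.

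Cells repair DNA by routes that share few proteins. The Fanconi anaemia core complex adds ubiquitin to FANCI and its partner FANCD2 where a crosslink between the strands blocks a replication fork. Homologous recombination copies a broken end from the sister chromatid, a step in which BRCA2 and the paralog complexes of RAD51B, RAD51C, RAD51D, XRCC2 and XRCC3 take part. End joining starts with the Ku ring of XRCC5 and XRCC6 and ends with the ligase that XRCC4 holds, XRCC1 is the scaffold of single-strand break repair, and mismatch repair reads replication errors with MutS complexes that hold MSH6 or MSH3 and passes them to MutL complexes such as that of PMS2. MSH4, MSH5 and RAD51AP2 are known from meiosis. Embryonic stem cells divide fast with a short G1 phase and are known for a strong reliance on homologous recombination.

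Each gene has an RPKM value per allele and library, made only from reads that cover a SNP between S129 and CAST. The reads assigned to an allele came to 56627972, 50284965, 48178422 and 34120416 in replicates 1 to 4. The steps between the values gave back the number of reads and the gene length behind them. Levels are the mean of both alleles. They compare genes only roughly, because a gene with more SNPs yields more assigned reads and because the length the authors divided by was in 35 of the 37 genes that of the transcript listed first in the annotation, which can be short. In 11 of them this transcript is a retained intron, a processed transcript or a target of nonsense-mediated decay. Levels are therefore given on the deposited scale and, where it matters, also per length of all annotated exons together, termed the exon-union scale. Differences between the alleles of a gene do not depend on its length. All 7 pluripotency markers were at 1 RPKM or more, with Nanog at 84.5 ± 11.4 and Sox2 at 125 ± 14.4 RPKM (SD, n = 4). Of 8 fibroblast markers 6 were also at 1 RPKM or more, and none was listed at 0. Their summed level was 223 to 288 RPKM in single libraries, of which Col1a2 made up 166 ± 17.5 RPKM, against 7174 to 8916 RPKM for the pluripotency markers, most of it from Dppa5a. The part of fibroblast RNA in the values below was not tested.

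The promoters are shown before the levels because most of the windows held a motif that the rule on symbols did not use; its letters were chosen after values were seen. Windows of 300 bases, from 250 before to 50 after the start site, were taken from RefSeq for GRCm38.p6 and matched 29 of the 37 symbols. Window start sites lay 65533 bases from the annotated gene start for Fancc, 28534 for Xrcc6, 1247 for Msh4 and 949 for Fancl. For the other genes this distance was at most 410 bases. Which start site these cells use was not tested. Rad50, Rad51d, Rad54b, Rad54l2 and Xrcc2 are among the genes for which no window was used. E2F factors, which drive genes of the S phase, are known to bind TTCCCGC and TTGGCGC. Searched on both strands, TTCCCGC occurred in 14 of the 29 windows and TTGGCGC in 6. Either form occurred in 18, or 62.1%, against 6.96% of the 27025 windows of all genes and 13.0% of the 9306 windows of genes with at least 1 RPKM here. Of 61 windows of other repair and damage signalling genes, taken from lists of the same pathways, 20 or 32.8% held either form. The 20 matches lay between 201 bases before and 21 bases after the start site, 14 of them within 100 bases of it. Pms1 and Rad51c held both forms. The 250 bases before the start are printed for 5 genes whose match lies there, and for Rad54l as an example without one. The strand is that of the gene, and capitals mark the matches to either form.
Brca2, breast cancer gene of homologous recombination, chr5:150522371-150522620, plus strand: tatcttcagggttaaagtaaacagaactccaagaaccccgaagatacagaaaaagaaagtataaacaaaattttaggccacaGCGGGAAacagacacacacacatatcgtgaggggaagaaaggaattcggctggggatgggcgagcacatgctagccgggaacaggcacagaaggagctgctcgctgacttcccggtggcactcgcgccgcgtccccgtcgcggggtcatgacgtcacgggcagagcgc
Pms1, a MutL homologue, chr1:53297029-53297278, minus strand: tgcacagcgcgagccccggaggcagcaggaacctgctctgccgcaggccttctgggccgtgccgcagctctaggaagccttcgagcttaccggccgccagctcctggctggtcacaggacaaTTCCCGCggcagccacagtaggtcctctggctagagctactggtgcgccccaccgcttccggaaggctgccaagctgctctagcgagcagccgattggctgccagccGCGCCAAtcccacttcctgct
Fancm, the translocase of the Fanconi core complex, chr12:65075353-65075602, plus strand: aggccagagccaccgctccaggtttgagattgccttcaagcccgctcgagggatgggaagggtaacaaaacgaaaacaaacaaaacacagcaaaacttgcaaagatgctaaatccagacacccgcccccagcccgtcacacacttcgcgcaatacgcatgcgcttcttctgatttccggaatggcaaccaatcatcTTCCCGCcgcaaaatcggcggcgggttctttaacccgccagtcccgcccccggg
Xrcc4, scaffold of the end joining ligase, chr13:90089609-90089858, minus strand: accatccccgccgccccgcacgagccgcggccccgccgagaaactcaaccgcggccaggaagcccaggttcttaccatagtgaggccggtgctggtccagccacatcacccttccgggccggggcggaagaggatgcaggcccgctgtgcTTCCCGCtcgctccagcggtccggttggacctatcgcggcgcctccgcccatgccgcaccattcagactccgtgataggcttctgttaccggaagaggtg
Rad51ap2, known from meiosis, chr12:11455805-11456054, plus strand: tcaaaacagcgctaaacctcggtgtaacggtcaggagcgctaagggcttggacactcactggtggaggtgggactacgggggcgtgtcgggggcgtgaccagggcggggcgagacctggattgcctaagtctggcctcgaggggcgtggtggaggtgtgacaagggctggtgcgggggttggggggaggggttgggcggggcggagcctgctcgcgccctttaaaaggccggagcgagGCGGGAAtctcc
Rad54l, a translocase of homologous recombination, chr4:116123691-116123940, minus strand: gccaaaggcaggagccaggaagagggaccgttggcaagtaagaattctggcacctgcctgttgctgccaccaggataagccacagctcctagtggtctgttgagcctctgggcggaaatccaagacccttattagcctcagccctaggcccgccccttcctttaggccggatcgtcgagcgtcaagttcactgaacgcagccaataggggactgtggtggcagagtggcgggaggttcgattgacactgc
The match of Brca2 starts 168 bases before the start site, those of Pms1 128 and 21, that of Fancm 54, that of Xrcc4 100 and that of Rad51ap2 12 bases before it.

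**Figure D1:**
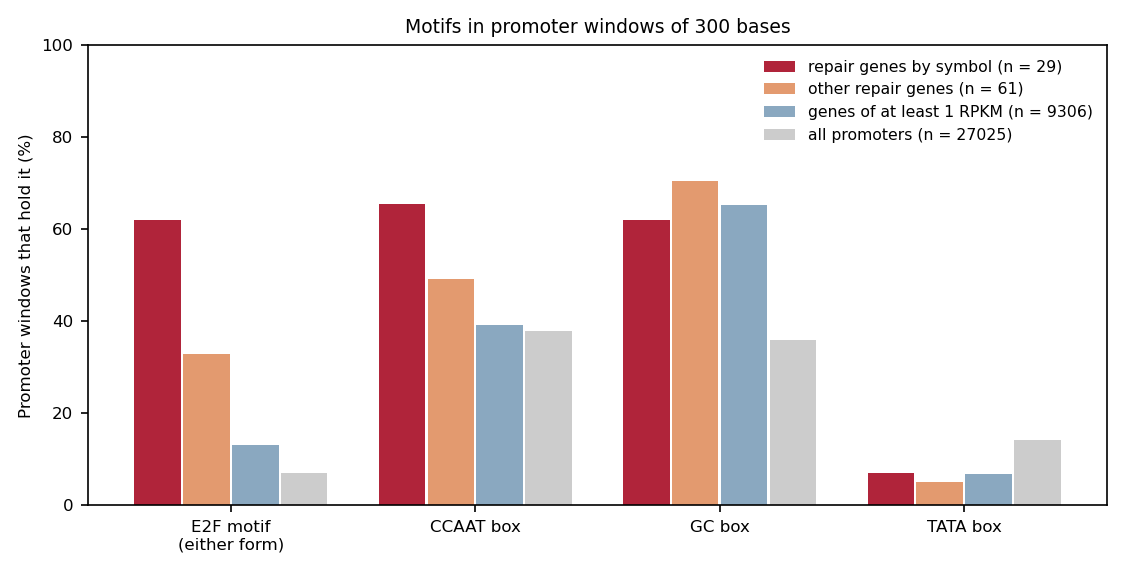
Share of promoter windows that hold a motif on either strand, in percent, for the 29 repair genes with a window, 61 other repair and signalling genes, 9306 genes of at least 1 RPKM and all 27025 windows; each bar is 1 share with no error, since the windows are all those used. The E2F forms stand at 62.1% in the repair genes and 13.0% in genes of at least 1 RPKM, whereas the GC box is at 62.1% and 65.2%.

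The other motifs searched differed less or not at all from genes with at least 1 RPKM. The CCAAT box, CCAAT, was found in 19 windows, or 65.5%, against 39.1%. The GC box, GGGCGG, was found in 62.1% against 65.2%, and the TATA box, TATAAA, in 6.90% against 6.79%. None of these letters lies within another of the motifs, though matches may overlap by some bases. The windows held a median of 24 CpG, from 3 in Fancl to 37 in Msh6, against 21 in genes with at least 1 RPKM and 7 in all windows. A match in these windows is a match of letters only. Genes with and without an E2F form spanned overlapping ranges of levels. On the exon-union scale the 18 with a form had a median of 6.26 RPKM, from 0.0463 in Rad51ap2 to 173 in Msh6, and the 11 without had a median of 5.73 RPKM, from 0.789 in Msh4 to 81.8 in Xrcc5.

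Of the 37 repair genes, 36, all but Rad51ap2, had a level of at least 1 RPKM, as did 49.7% of all genes. The median level of the repair genes was 14.4 RPKM on the deposited scale, against 0.975 RPKM over all genes and 9.67 RPKM over the 11946 genes with at least 1 RPKM. At 10 RPKM or more were 24 of them, and 24.5% of all genes. The median of the repair genes fell to 6.39 RPKM on the exon-union scale and to 11.6 RPKM per length of the longest coding transcript. The exon union was at least 2 times the length used in 43.2% of the repair genes. This share was 30.7% among the 10199 genes with at least 1 RPKM compared in this way. The deposited scale thus raised the repair genes more often, and medians of other genes were not worked out on the other scales. Whether repair genes stand above other expressed genes was therefore not tested. Depth limits Rad51ap2, with 26 reads in all libraries, and Msh5, with 80 to 110 reads per library; the other genes had at least 178 reads in each library.

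**Figure D2:**
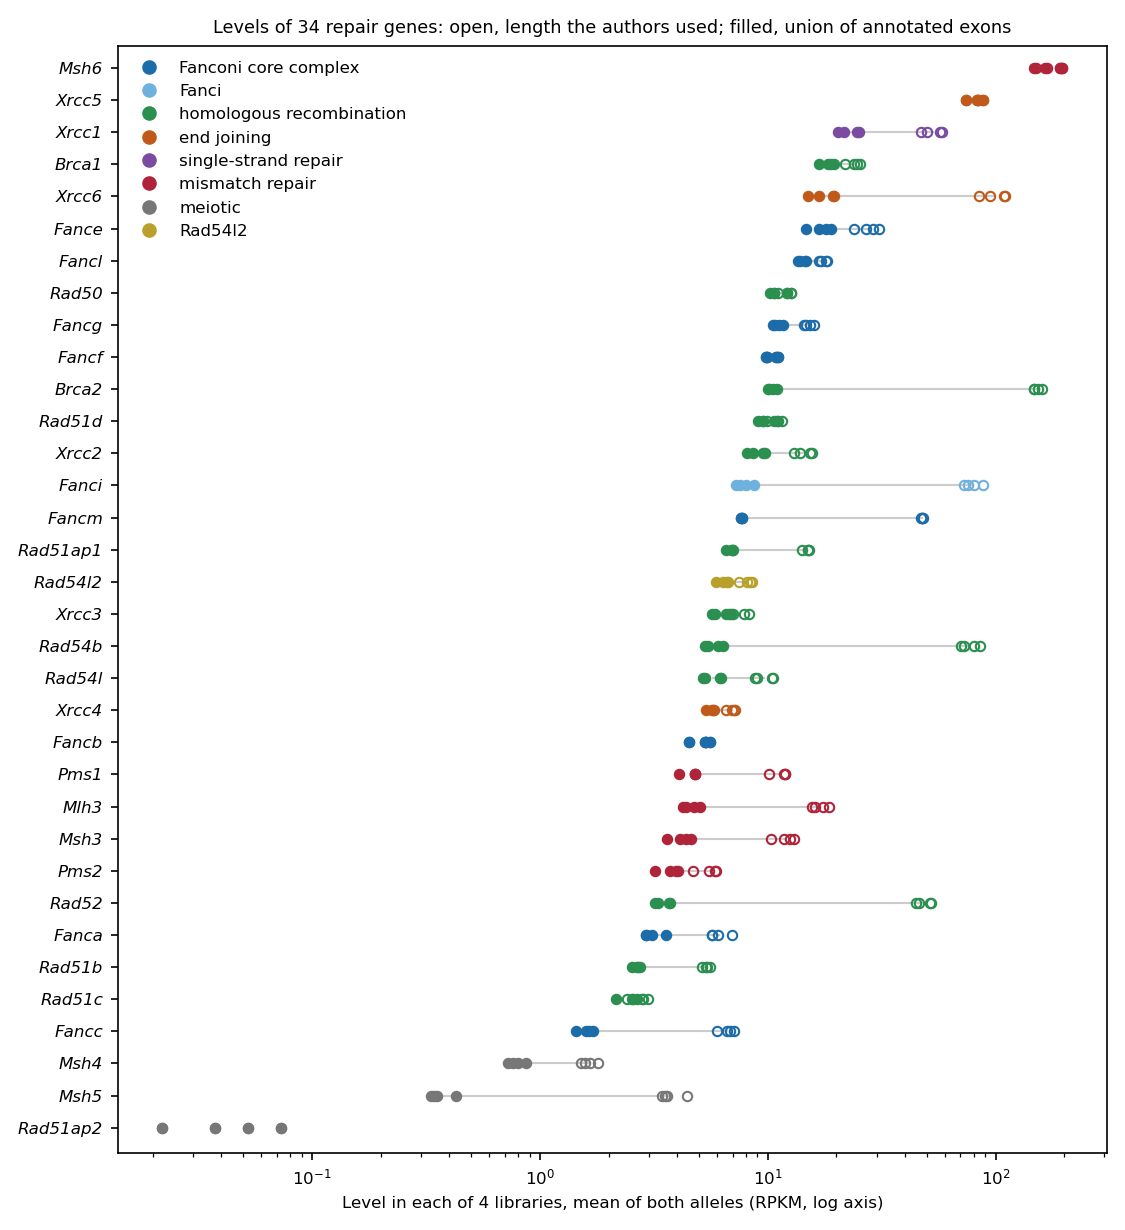
Level of 34 of the genes in the 4 libraries as the mean of both alleles, in RPKM on a log axis, by role; open circles use the length the authors divided by and filled circles the union of annotated exons, and a line joins the means of both. Msh6 stands highest on both scales, at 177 and 173 RPKM, and Brca2 moves from 152 to 10.4 RPKM.

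Mismatch repair held the gene with the highest level. Msh6, whose product reads single mismatches (ENSMUSG00000005370; mm10 chr17:87975062-87990892, plus strand), had 168, 195, 195 and 151 RPKM in replicates 1 to 4, and 177 ± 21.9 RPKM (SD, n = 4) on average. It was lowest in replicate 4. Msh3, for small loops, stood far below Msh6, at 11.9 ± 1.18 RPKM (10.3 to 13.1 RPKM). In log2(RPKM+0.1), Msh6 minus Msh3 was 3.88 ± 0.060 (SD, n = 4). On the exon-union scale this difference was 5.34, so its direction did not depend on the length.

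The MutL genes described here, whose products act after the mismatch is found, were lower than Msh6. They stood at 5.51 ± 0.563 RPKM for Pms2, which carries the nuclease, 11.4 ± 0.864 RPKM for Pms1 and 16.9 ± 1.29 RPKM for Mlh3 (SD, n = 4 each). Pms2 shares 479 bp of exons with Rsph10b and Gm42421 on the same strand, so its reads may not be its own. The meiotic MutS genes stood near the bottom, Msh4 at 1.64 ± 0.13 RPKM and Msh5 at 3.74 ± 0.448 RPKM (SD, n = 4). Their order turned on the exon-union scale, on which Msh4 was at 0.789 and Msh5 at 0.365 RPKM, because the length behind Msh5 was 538 bp and its exons together span 5526 bp.

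Xrcc5 and Xrcc6 are the end joining genes whose products form Ku. Xrcc5, which codes for Ku80 (ENSMUSG00000026187; chr1:72307421-72394952, plus strand), had 82.4, 87.6, 83.6 and 73.7 RPKM in replicates 1 to 4, and Xrcc6, which codes for Ku70 (ENSMUSG00000022471; chr15:81987835-82040085, plus strand), had 94.6, 110, 109 and 84.1 RPKM. Xrcc6 was the higher partner in each library, with a log2(RPKM+0.1) difference of Xrcc5 minus Xrcc6 of -0.27 ± 0.094 (SD, n = 4). This order rests on a length of 797 bp for Xrcc6. Its exons together span 4476 bp, and on the exon-union scale Xrcc6 was at 17.7 ± 2.18 RPKM, below Xrcc5 at 81.8 ± 5.86 RPKM (SD, n = 4), with a log2 difference of 2.21. The order of the Ku subunits therefore depends on the length used. Xrcc4 was lower than either on both scales, at 6.95 ± 0.268 RPKM (deposited scale, SD, n = 4). Xrcc1, the scaffold of single-strand break repair, had 52.9 ± 5.30 RPKM (SD, n = 4; 47.1 to 57.8 RPKM) and 23.0 RPKM on the exon-union scale.

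Among the 13 genes of homologous recombination, the deposited levels of several rested on very short transcripts. Brca2 was listed at 152 ± 6.27 RPKM (SD, n = 4; 153, 146, 160 and 147 in replicates 1 to 4), which gave it rank 2 of the 37 genes. The length behind it was 937 bp, that of a retained intron, while its exons together span 13643 bp. On the exon-union scale it was at 10.4 RPKM, rank 13. Rad54b moved in the same way from 77.0 ± 6.75 to 5.78 RPKM (length 434 bp), and Rad52, which anneals single strands, from 48.6 ± 3.71 to 3.46 RPKM (410 bp). The order of Brca1 and Brca2 also turned with the length. Brca1, at 23.9 ± 1.58 RPKM with a length of 6572 bp, differed from Brca2 by -2.66 in log2(RPKM+0.1) as deposited, and by 0.82 on the exon-union scale, where it was at 18.4 RPKM. The difference of Rad54l (9.67 ± 0.936 RPKM) from its relative Rad54b was -2.98 as deposited and -0.013 on the exon-union scale. Rad54b also shares 2068 bp of exons with Fsbp on the same strand.

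The genes of the paralog complexes ran from 2.76 to 14.4 RPKM on the deposited scale. Xrcc2 had 14.4 ± 1.24, Rad51d 10.5 ± 0.954, Xrcc3 7.47 ± 0.697, Rad51b 5.38 ± 0.184 and Rad51c 2.76 ± 0.246 RPKM (deposited scale, SD, n = 4 each). Rad51c, which is part of both paralog complexes, was below Xrcc3 in each library, with a log2(RPKM+0.1) difference of -1.40 ± 0.13 (SD, n = 4), and of -1.30 on the exon-union scale. Rad51d minus Xrcc2 came to -0.45 ± 0.014, but to 0.16 on the exon-union scale. Of the other genes, Rad51ap1, which stimulates strand pairing, had 14.8 ± 0.474 RPKM, and Rad50, of the complex that senses broken ends, had 11.8 ± 1.05 RPKM (SD, n = 4 each). Rad54l2 had 8.12 ± 0.453 RPKM.

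On the exon-union scale the 8 Fanconi core genes ran from 1.59 to 17.1 RPKM. On the deposited scale Fancm had 47.6 ± 0.263, Fance 27.6 ± 2.94, Fancl, the ubiquitin ligase of the complex, 17.5 ± 0.682, Fancg 15.1 ± 0.700, Fancf 10.4 ± 0.655, Fancc 6.63 ± 0.485, Fanca 6.09 ± 0.596 and Fancb 5.19 ± 0.470 RPKM (SD, n = 4 each). Fanci, coding for the substrate of the complex, was listed at 79.1 ± 6.48 RPKM with a length of 575 bp and stood at 7.88 RPKM on the exon-union scale. Fancm was likewise divided by 1682 bp of a retained intron and stood at 7.66 RPKM on the exon-union scale. Fancb is on the X chromosome, of which these cells hold only the S129 copy, so its mean of both alleles counts the CAST column as well.

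The sign-flip test could not decide any of the pairs of partners above. Over the 10 pairs compared, every difference on the deposited scale had the same sign in 4 of 4 libraries, and each exact sign-flip test, two-sided, gave p = 0.13 (0.13 also after Benjamini-Hochberg adjustment over the 10), which is as low as 4 libraries can give. On the deposited, exon-union and longest coding scales alike, 5 of the 10 pairs kept their direction. In the order of the 37 levels, 28 of the 36 neighbouring pairs overlapped in the range of their libraries on the deposited scale and 25 on the exon-union scale, so most neighbours were not apart beyond their spread.

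Across libraries the repair genes had a median level of 13.8, 15.2, 15.0 and 13.0 RPKM in replicates 1 to 4, and 24 of the 37 were lowest in replicate 4. Relative to the mean of each gene, the median ratio in replicate 4 was 0.922 for the repair genes and 0.931 over all genes. The coefficient of variation had a median of 8.68% over the repair genes and 9.26% over the 11946 genes with at least 1 RPKM. After each library was divided by its median ratio, the median over the repair genes fell to 5.12%, and that over the genes with at least 1 RPKM to 7.02%.

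Which copy of each repair gene was higher was asked by limma on the difference of log2(RPKM+0.1), S129 minus CAST, within each library, with Benjamini-Hochberg adjustment over the 13341 genes tested. Of these genes 62.7% had an adjusted p under 0.05. Of the 37 repair genes 36 passed the filter for this test, all but Rad51ap2, and 32 of them differed between the copies, 15 with S129 higher and 17 with CAST higher. On the autosomes these were 31 of 35 repair genes, 14 with S129 higher and 17 with CAST higher, where 61.4% of the 12869 autosomal genes tested were called. Among the 10016 genes with at least 1000 reads, 67.0% were called. The median size of the difference, without its sign, was 0.40 for the 35 genes and 0.29 for the autosomal genes. The split between the copies depends on the scaling. Each column was divided by its own total of reads, which in each library was larger for S129 (28772351 against 27855621 in replicate 1). Pms2 had 50.6% of its reads on S129 but a log2 difference of -0.027. When each column was rescaled to the same autosomal sum, the median over all genes moved from -0.0034 to 0.099, and 18 repair genes were higher on S129 and 10 on CAST, with 28 called in all. Treating the copies as unpaired groups left 23 called, 12 higher on S129 and 11 on CAST.

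**Figure D3:**
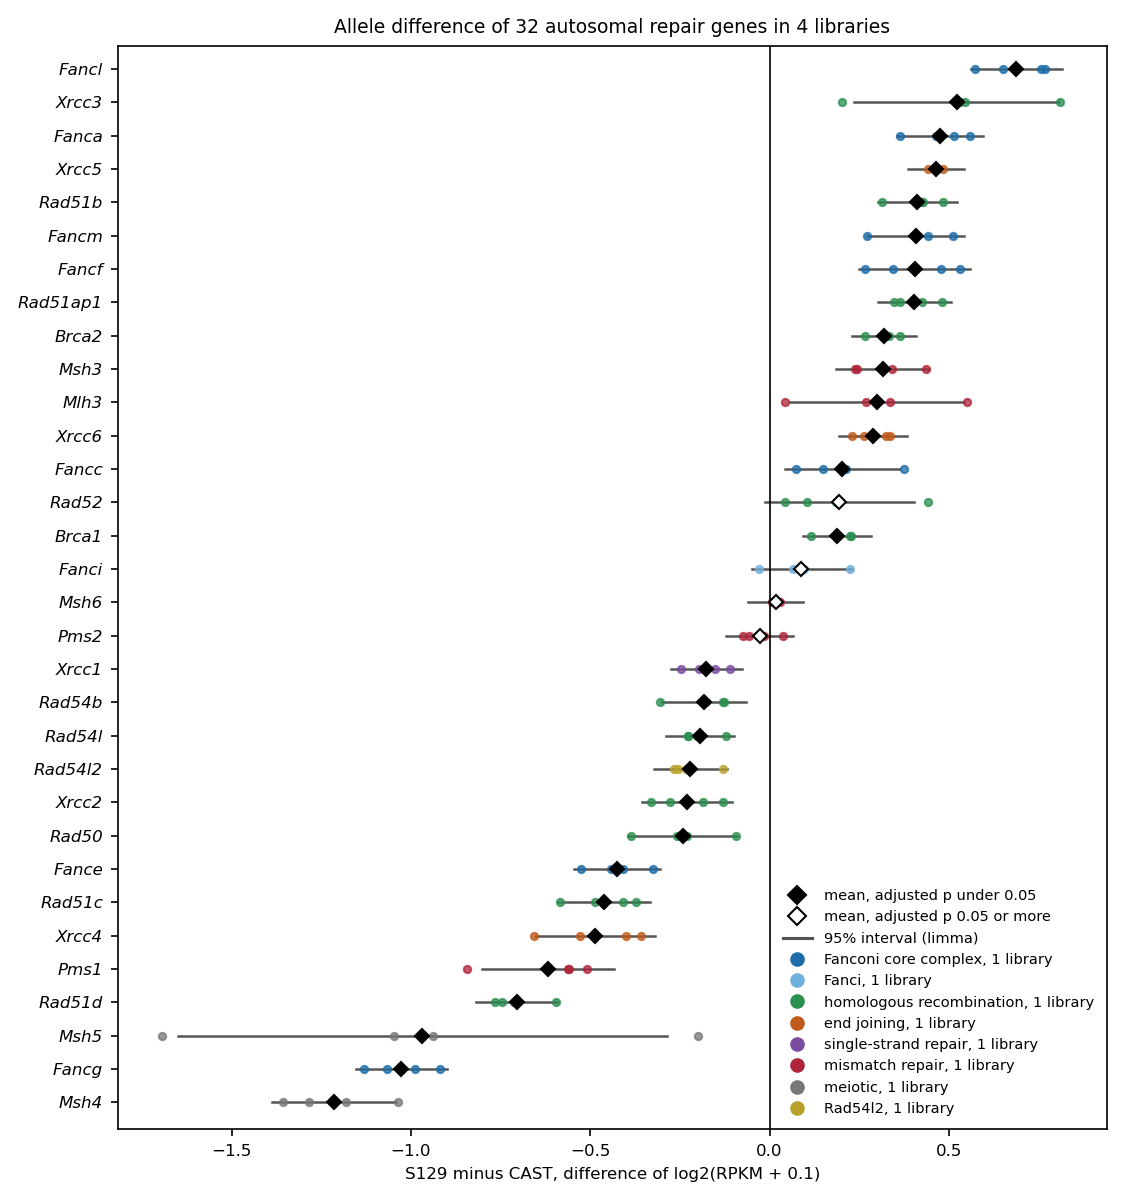
Difference S129 minus CAST of log2(RPKM + 0.1) for 32 autosomal genes, with 1 point for each of 4 libraries, the mean as a diamond and its 95% interval from limma as a line; filled diamonds have an adjusted p under 0.05. Msh4 and Fancg lie beyond -1, and the intervals of Fanci, Msh6, Pms2 and Rad52 cross 0.

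Between the roles the directions were mixed. Of the autosomal genes tested, 61.4% were called, 28.9% with S129 higher and 32.5% with CAST higher. In the Fanconi core all 7 autosomal genes differed, 5 with S129 higher (Fanca, Fancc, Fancf, Fancl and Fancm) and 2 with CAST higher (Fance and Fancg). In homologous recombination 12 of 13 differed, 5 with S129 higher (Brca1, Brca2, Rad51ap1, Rad51b and Xrcc3) and 7 with CAST higher (among them Rad50, Rad51c, Rad51d, Rad54b, Rad54l and Xrcc2). Among the genes named so far, Fancc, Brca1, Xrcc3, Rad50, Rad54b, Rad54l and Xrcc2 each lost their call in at least 1 of the alternative fits given below. Both Ku genes were higher on S129 and Xrcc4 on CAST. In mismatch repair 5 of 7 differed, among them Mlh3 and Msh3 with S129 higher and Pms1 with CAST higher. Msh4 and Msh5, Xrcc1 and Rad54l2 were higher on CAST. The calls of Xrcc6, Mlh3, Msh5, Xrcc1 and Rad54l2 were also each lost in at least 1 of these fits. In 6 of the 10 pairs of partners compared above both genes were called. In 5 of these pairs the same copy was higher in both, and in 1, Rad51c and Xrcc3, opposite copies were. Each of the 6 pairs held a gene whose call was lost in at least 1 of the alternative fits given below. How often unrelated called genes share a direction was not worked out.

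The difference was at least 0.5 on the log2 scale, with an adjusted p under 0.05, in 9 of the autosomal repair genes, and in 29.1% of the autosomal genes tested. Among those described here, it reached 1, or about 2-fold, in Msh4 and Fancg. Fancg, a core subunit (ENSMUSG00000028453; chr4:43002343-43010506, minus strand), had 9.65, 9.88, 9.99 and 10.1 RPKM on S129 and 19.2, 20.8, 22.0 and 19.3 RPKM on CAST. Its log2 difference was -1.03 (standard error 0.047, limma adjusted p = 0.000132, CAST higher in 4 of 4). The groups did not overlap, and the S129 values lay within a span of less than 0.5 RPKM. Msh4 (ENSMUSG00000005493; chr3:153857149-153906138, minus strand) had 0.836, 0.972, 0.968 and 1.00 RPKM on S129 and 2.18, 2.33, 2.64 and 2.16 RPKM on CAST, from 300 and 720 reads in all. Its log2 difference was -1.21 (standard error 0.064, limma adjusted p = 0.000196, CAST higher in 4 of 4), again with no overlap.

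**Figure D4:**
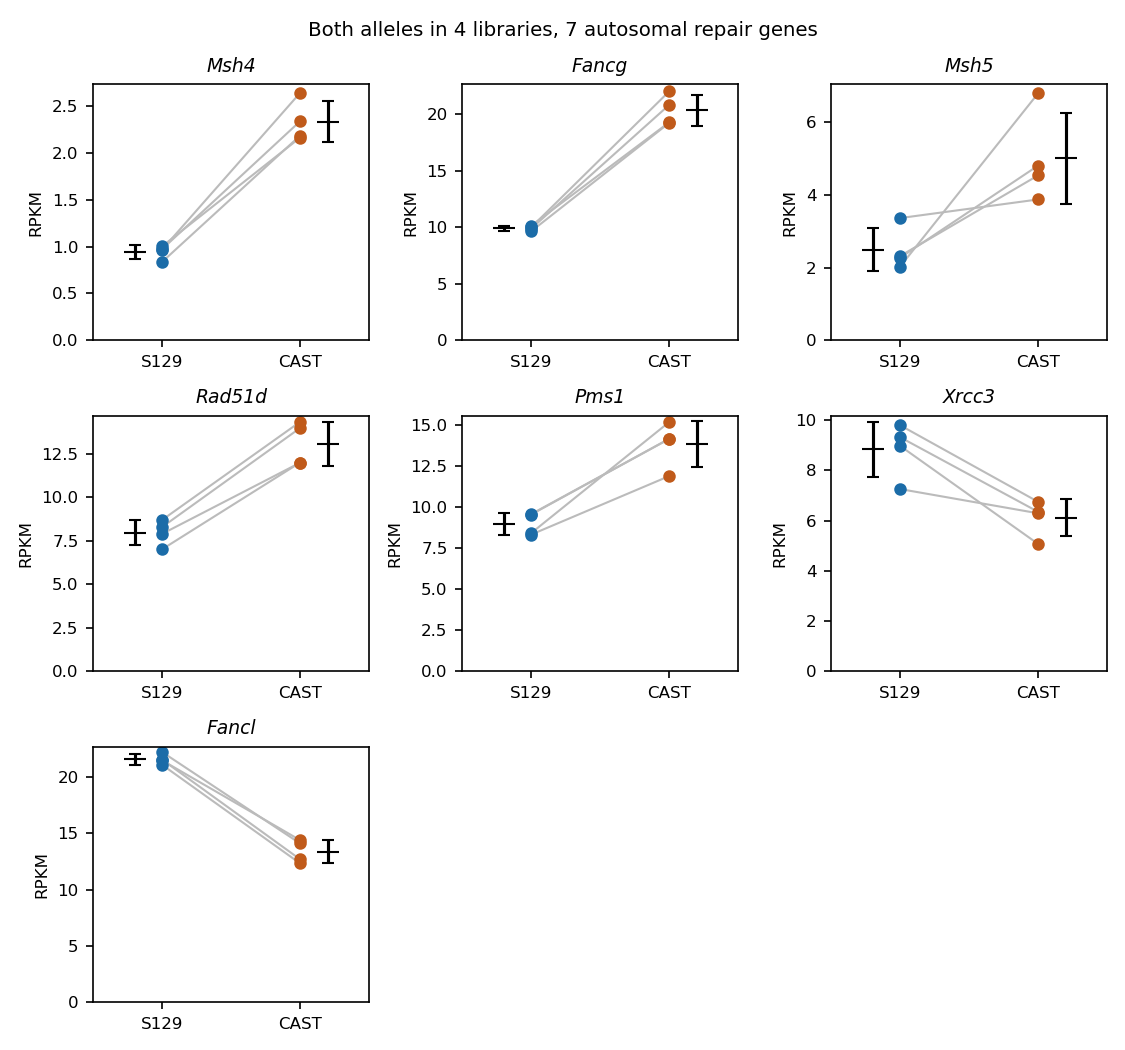
RPKM of the S129 and the CAST copy in each of 4 libraries for 7 autosomal repair genes with a difference of at least 0.5 on the log2 scale, with lines joining the copies of a library and the mean with its SD beside the points. In all 7 genes the groups do not overlap, and CAST is the higher copy in 5 and S129 in Xrcc3 and Fancl.

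The other differences of at least 0.5 described here were less than 2-fold. Rad51d, of a paralog complex, had 7.90, 8.70, 8.29 and 7.01 RPKM on S129 against 12.0, 14.3, 14.0 and 12.0 RPKM on CAST in replicates 1 to 4 (log2 difference -0.71, standard error 0.042, limma adjusted p = 0.000285). Pms1 had 9.56, 8.41, 9.54 and 8.32 RPKM on S129 against 14.1, 15.2, 14.1 and 11.9 RPKM on CAST (log2 difference -0.62, standard error 0.069, limma adjusted p = 0.00190). In both genes all CAST values were above all S129 values. Fancl had 22.2, 21.6, 21.5 and 21.1 RPKM on S129 against 14.1, 12.7, 14.4 and 12.3 RPKM on CAST (log2 difference 0.69, standard error 0.048, limma adjusted p = 0.000436). Xrcc3 had 7.25, 9.79, 9.31 and 8.97 RPKM on S129 against 6.29, 6.75, 6.35 and 5.07 RPKM on CAST (log2 difference 0.52, standard error 0.11, limma adjusted p = 0.0131). Here S129 was the higher copy with no overlap, but Xrcc3 was no longer called without replicate 2 or without replicate 3. Msh5 had 3.36, 2.32, 2.27 and 2.03 RPKM on S129 against 3.87, 4.53, 4.80 and 6.78 RPKM on CAST (log2 difference -0.97, standard error 0.25, limma adjusted p = 0.0282). It rests on 133 and 240 reads in all, was not called without replicate 2, 3 or 4, and its difference ran from -1.23 to -0.73 as single libraries were left out.

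The gene with the highest level did not pass the test between its copies. Msh6 had 168, 197, 195 and 152 RPKM on S129 and 167, 194, 195 and 149 RPKM on CAST. Its log2 difference was 0.016 with a 95% interval from -0.06 to 0.09 (limma adjusted p = 0.643, S129 higher in 4 of 4 libraries), from 144030 reads in all.

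The remaining 22 autosomal calls were below 0.5 on the log2 scale. The copies of Ku differed the same way, by 0.46 for Xrcc5 (standard error 0.029, limma adjusted p = 0.000325; 94.9 ± 7.23 against 68.7 ± 4.49 RPKM, SD, n = 4) and by 0.29 for Xrcc6 (standard error 0.035, limma adjusted p = 0.00254; 109 ± 12.0 against 89.5 ± 12.6 RPKM). For Brca2 the S129 copy had 168 ± 7.67 and the CAST copy 135 ± 5.55 RPKM, a difference of 0.32 (standard error 0.033, limma adjusted p = 0.00150), and for Brca1 it was 0.19 (standard error 0.035, limma adjusted p = 0.00995). Brca1 lost its call without the pairing (limma adjusted p = 0.0916) and, with a limma adjusted p just above 0.05, without replicate 2, and Xrcc6 without the pairing (limma adjusted p = 0.0863). Rad51c, at -0.46, was higher on CAST, and so was Xrcc2, at -0.23, though the call of Xrcc2 was lost without the pairing, without replicate 3 and with the rescaled columns. The 4 genes that were not called were Pms2 at -0.027 (limma adjusted p = 0.528), Msh6, Fanci at 0.089 (limma adjusted p = 0.200) and Rad52 at 0.19 (limma adjusted p = 0.0891). The intervals of Pms2, from -0.12 to 0.07, and Fanci, from -0.05 to 0.23, leave out the 0.5 above, and that of Rad52 reaches 0.40. With the columns rescaled to the same autosomal sum, S129 was called higher in Msh6, at 0.12 (limma adjusted p = 0.0400), Fanci, at 0.19 (limma adjusted p = 0.0278), and Rad52, at 0.30 (limma adjusted p = 0.0168), so these 3 depend on the scaling.

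All 4 values of 1 copy lay above all 4 of the other in 20 of the 35 autosomal repair genes, and in 43.6% of the autosomal genes tested. The sign was the same in every library for 33 of the 35, and for 71.0% of the autosomal genes tested. Calls of 19 repair genes, 10 with S129 higher and 9 with CAST higher, were kept in each of the 13 or 14 alternative fits run on them, which changed the pseudocount, the filter, the scaling, the pairing or the libraries. These include Fancg, Msh4, Rad51d, Pms1, Fancl, Xrcc5 and Brca2. The other 13 lost their call in at least 1 of these fits. The share of calls kept was not worked out over all genes tested. Taking out the median of the genes within 1 Mb was not among these fits, and Brca2 was then at -0.13.

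X-linked Fancb serves as a check of the labels, as male cells hold no CAST copy of the X chromosome. It had 11.2, 10.6, 10.7 and 9.02 RPKM on S129 in replicates 1 to 4. On CAST it was listed at 0 in replicates 1, 2 and 4 and at 0.0284 RPKM in replicate 3, from 2 reads. These were 0.0662% of its 3021 reads (exact 95% binomial interval 0.00802% to 0.239%, which covers counting error only).

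Each repair gene was set beside the genes around it on its chromosome. On 15 autosomes the median difference was between -0.07 and 0.01, but it was -0.74 on chromosome 3, 0.69 on chromosome 16, 0.19 on chromosome 6 and -0.25 on chromosome 8. Msh4 is on chromosome 3, and the 5 tested genes within 1 Mb of it had a median of -0.96, against -1.21 for Msh4 itself. Rad52 and Rad51ap1 are on chromosome 6. The difference of Rad52, 0.19, was that of its chromosome. Fanca, on chromosome 8, was higher on S129 by 0.48 while its chromosome and its neighbours were higher on CAST, the 44 genes within 1 Mb with a median of -0.28. The neighbours of Fancg were also higher on CAST, with a median of -0.57 over 26 genes, and those of Brca2 higher on S129, with a median of 0.45 over 8 genes. Those of Pms1 (0.028, 12 genes), Rad51d (-0.043, 25 genes) and Msh5 (-0.083, 69 genes) were much nearer to 0 than the repair gene. Of the 33 autosomal repair genes with at least 5 tested genes within 1 Mb, 22 lay outside the quartiles of these neighbours, as did 55.5% of the 11951 autosomal genes with as many. The copy number of the chromosomes was not analysed here.

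**Figure D5:**
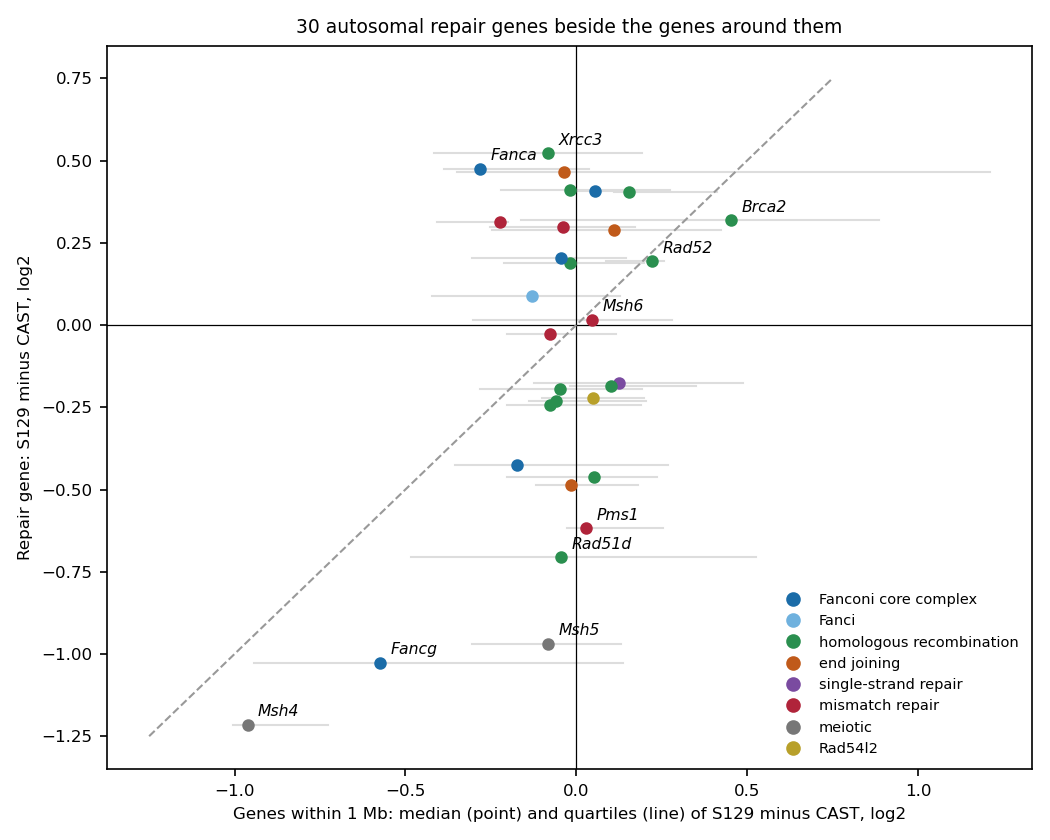
Difference S129 minus CAST, on the log2 scale, of 30 autosomal repair genes (vertical) against the median of the tested genes within 1 Mb (horizontal), with a grey line over the quartiles of these neighbours and a dashed line of equality. Rad52 lies near the dashed line. Msh4 lies below it, at -1.21 against a median of -0.96, and Msh5, Rad51d and Pms1 lie further below it.

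The exons of several repair genes overlap those of a gene on the other strand. These antisense overlaps were 1558 bp for Fancc, 1184 bp for Rad54l with Lrrc41, 921 bp for Fanci with Polg, 920 bp for Fanca with Zfp276, 738 bp for Fancm, 462 bp for Fancl with Vrk2 and 344 bp for Xrcc6 with Desi1. The library kit keeps the strand, but whether it was used in counting is not given in the sources used here, so reads of the paired genes cannot be told apart here.

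Other genes of the same pathways, from lists of complex members and partners, numbered 72 among the deposited genes, and 69 were tested between the copies. Of these 48, or 69.6%, were called, 24 with S129 higher and 24 with CAST higher, with a median size of 0.25. This share is near the 62.7% of all genes tested and the 67.0% of those with at least 1000 reads that were called. Over all genes tested, 31.4% were called higher on S129 and 31.3% on CAST. The directions in the lists below were not counted with rescaled columns, which moved the split of the repair genes. Among the partners of homologous recombination 15 of 20 were called, 3 with S129 higher and 12 with CAST higher, led by Rpa3, of the protein that coats single strands, at -1.15 (221 ± 43.5 against 492 ± 95.7 RPKM; limma adjusted p = 2.13e-05) and Dna2, a nuclease of end resection, at -0.86. Among the other Fanconi genes 11 of 15 were called, 6 and 5, led by Cenpx at 1.01 and Slx4, a scaffold of nucleases, at 0.66. Slx4 is on chromosome 16, as is Rnf168, a ligase of damage signalling at 0.79, where the median over genes was 0.69. In end joining 4 of 8 were called, 3 with S129 higher and 1 with CAST higher, led by the polymerase gene Polm at -0.98 and by Aplf at 0.79. In single-strand repair 5 of 7 were called, among them the polymerase gene Polb at -0.56, and of the replication partners of mismatch repair 3 of 4, led by Pold1 at 0.47 and the clamp Pcna at 0.23. In damage signalling 4 of 8 were called, 2 each way, with Rnf168 and Mdc1 (-0.35) the largest. Of the other meiotic genes 6 of 7 were called, among them the X-linked Tex11, higher on S129, and Sycp1 of the synaptonemal complex, at -1.81 on chromosome 3.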

How the data were processed

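RNA of 4 libraries of untreated F123-ESCs was polyA-enriched, prepared with a stranded kit and read from both ends over 150 bp. The authors filtered ribosomal RNA, trimmed reads with Trimmomatic (version 0.40 per the labels), aligned them with STAR to mm10 masked at strain SNPs and assigned them to S129 or CAST with SNPsplit. The authors deposited RPKM per gene and allele, together with an average per allele over the libraries and the log10 of this average plus 1, which they computed before deposit and which were not used here. The counting program, annotation and strand setting are not given in the sources used here. Columns were matched to libraries by allele and number.

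Whole reads (within 0.02 reads and 2e-07 of the number) and lengths were recovered for 20122 of the 20243 genes above 0, with 24003 genes matched to GENCODE M21. Depth limits precision most in replicate 4. No count test was used, since the lengths were inferred. Genes with at least 1 RPKM over both alleles were compared by limma 3.58.1 (R 4.3.3) with an intercept on paired differences of log2(RPKM+0.1), Benjamini-Hochberg adjusted; the added constant understates changes of low genes. The pairing rests on both columns being reads of the same library. Over 10915 genes, deviations correlated by 0.155 to 0.278 within a library and by -0.249 to 0.223 between libraries. These ranges overlap, so the correlations alone do not settle the pairing. Partner genes were compared by exact sign-flip tests, and libraries by Dixon's criterion. The scripts were tested on simulated data. Alternatives covered pseudocounts, filters, scaling, gene length, pairing, chromosome or neighbour medians and each library left out.

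The rule on symbols, the pathway lists and the pairs were set with earlier results of these data known. Some repair and pathway genes are counted but not reported singly here, nor drawn in the plots; full statistics are given for those called with a difference of at least 0.5 and for partners, and from each pathway list at most 2 called genes with the largest differences. Motif letters and the genes whose promoters are printed were chosen after values were seen.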

Additional observations from a re-analysis of the deposited data

Results flagged for a closer look

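Dixon's criterion was applied to the levels of the 37 repair genes and to the allele differences of the 35 autosomal ones tested, each with 4 libraries. It was passed by 2 of the 72 quantities, where chance gives about 1 in 20, or 3.6. Both concern Pms1, the MutL homologue, and a different library each. Its level was 10.1 RPKM in replicate 4, while the other libraries had between 11.78 and 11.84 RPKM. Over all genes the median ratio in replicate 4 was 0.931. After each library was divided by its median ratio, Pms1 had 12.1, 11.3, 11.3 and 10.8 RPKM in replicates 1 to 4. Dixon's criterion was not applied to these divided levels. The log2 difference S129 minus CAST of Pms1 was -0.84 in replicate 2, where the other libraries had between -0.56 and -0.51. CAST was the higher copy of Pms1 in all 4 libraries. No explanation was tested for either value.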

How the results depend on the processing

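The length of a gene moved levels most. The median level of the repair genes was 14.4 RPKM as deposited, 6.39 RPKM per exon union, 11.6 RPKM per longest coding transcript (added after seeing the data), 13.2 RPKM on S129 alone and 13.4 RPKM on CAST alone. Partner differences turned on the exon-union scale to 2.21 for Xrcc5 minus Xrcc6, 0.94 for Msh4 minus Msh5, 0.82 for Brca1 minus Brca2 and 0.16 for Rad51d minus Xrcc2, and on the longest coding scale to 1.77, 1.12 and 0.85 for the same 3 former pairs and to 0.32 for Rad54l minus Rad54b.

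Between the alleles, 32 repair genes were called. Without pairing by library, that is with no replicate block, 6425 of the 13341 genes and 23 repair genes were called, and the number higher on CAST went from 17 to 11. Rescaling to one autosomal sum gave 10 higher on CAST, a median difference over the repair genes of 0.097 in place of -0.0055, and 0.074 for Pms2. Leaving out each library in turn gave 11 to 15 higher on CAST and 11 to 15 higher on S129; 5 calls were lost without replicate 1, 8 without replicate 2, 9 without replicate 3 and 2 without replicate 4. With the median of its chromosome taken out, Rad52 was at -0.0085. With that of the genes within 1 Mb taken out (added after seeing the data), Brca2 was at -0.13, Msh6 at -0.031, Pms2 at 0.048 and Rad52 at -0.027. The cause of these changes was not tested. The number of genes at 1 RPKM or more stayed at 34 to 36 under the alternatives run. Depth limits Msh5 and Rad51ap2 most. The total of assigned reads was lowest in replicate 4, but Rad51ap2 had its fewest reads in replicate 1.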
